A study of Mus musculus with 48 samples.

Results

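The CC chemokines described here were 9 secreted attractant genes, *Ccl2*, *Ccl3*, *Ccl4*, *Ccl5*, *Ccl6*, *Ccl7*, *Ccl9*, *Ccl12* and *Ccl22*, chosen by gene name from the array annotation. Each had 1 probe, so that 9 probes of the 55681 on the array were followed, in all 48 samples. RNA came from cells that had been magnetically sorted straight from brains of male mouse pups, either with the O4 antibody, which binds a surface lipid of late oligodendrocyte progenitors and young oligodendrocytes, or with an antibody to CD11B, an integrin carried by microglia and other myeloid cells. Interleukin-1 beta (IL1B, 10 ng per g) or PBS was injected into the peritoneum from postnatal day 1 (P1) to P5, and cells were taken at P5, 2 h after the last injection according to the labels, or at P10. The 8 groups (O4+ or CD11B+, P5 or P10, PBS or IL1B) held 6 arrays each. The labels call the strain swiss and give no genetic modification. The methods instead name OF1 pups and a longer interval after the P5 injection, and the study's text speaks both of cortices and of brains from which cerebellum and olfactory bulbs had been removed. The labels speak of single mice, whereas the methods describe brains pooled for each sort. Both cell fractions were taken in turn from the same tissue by magnetic beads, which enrich a population and do not purify it.

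CC chemokines are small secreted proteins named for a pair of adjacent cysteines, and they draw leukocytes along a gradient by binding G-protein-coupled receptors. *Ccl2*, *Ccl7* and *Ccl12* belong to the monocyte chemoattractant group, which acts mainly through Ccr2. *Ccl3*, *Ccl4* and *Ccl5* draw monocytes and T cells, *Ccl6* and *Ccl9* are rodent ligands of Ccr1, and *Ccl22*, made by dendritic cells and macrophages, binds Ccr4. In the brain, microglia are a well-known source of several of them, and IL1B is a classical inducer through NF-kappaB and AP-1.

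The probe positions in the files (build mm9) placed the members in 2 clusters on chromosome 11, apart from *Ccl22*. The first cluster held the probes of *Ccl2* (chr11:81850650-81850709, plus strand), *Ccl7* (chr11:81860656-81860715, plus) and *Ccl12* (chr11:81916764-81916823, plus). The second held *Ccl5* (chr11:83339296-83339355, minus), *Ccl9* (chr11:83388223-83388282, minus), *Ccl6* (chr11:83401997-83402056, minus), *Ccl3* (chr11:83461358-83461417, minus) and *Ccl4* (chr11:83478052-83478111, plus). *Ccl22* lay at chr8:97274709-97274768 on the plus strand. Which exon or untranslated region each probe reads was not analysed here, and signal that a probe may take from a related family member was not tested.

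RefSeq promoter sequences (build GRCm38.p6) were at hand for 5 members, *Ccl3*, *Ccl6*, *Ccl9*, *Ccl12* and *Ccl22*. Those of *Ccl12*, the member with the largest change in O4+ cells, and of *Ccl9*, which was called in none of the 4 IL1B comparisons, are shown as the 250 bases before the start site, 5′ to 3′ on the gene's strand. Capitals mark matches on either strand to the NF-kappaB consensus and to a loose AP-1 pattern, TGANTCA. That pattern leaves the middle base (N) free, and a stricter form was not searched.
Ccl12, chr11:82101595-82101844, plus strand: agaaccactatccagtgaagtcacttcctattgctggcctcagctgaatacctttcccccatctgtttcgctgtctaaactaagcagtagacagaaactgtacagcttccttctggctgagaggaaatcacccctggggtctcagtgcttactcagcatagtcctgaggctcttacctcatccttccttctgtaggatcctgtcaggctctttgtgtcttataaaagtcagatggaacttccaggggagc
Ccl9, chr11:83578637-83578886, minus strand: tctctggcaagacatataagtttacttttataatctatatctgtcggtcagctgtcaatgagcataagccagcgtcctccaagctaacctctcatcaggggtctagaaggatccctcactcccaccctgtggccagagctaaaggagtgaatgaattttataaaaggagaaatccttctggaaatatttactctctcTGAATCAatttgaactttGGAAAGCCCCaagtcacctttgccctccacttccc
The *Ccl9* window held 1 match to the AP-1 pattern, 53 to 47 bases before the start, with A as the middle base. It also held 1 NF-kappaB match on the opposite strand, 35 to 26 bases before the start, and these did not overlap. No match of either kind lay in the windows of the other 4 genes. Of 32851 mouse promoter windows of the same length, 3.9% held the NF-kappaB consensus and 6.75% the loose AP-1 pattern.

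Signals are given as log2 of the processed intensity after quantile normalization, over the 24 arrays of a cell type unless stated. A member was called changed when limma's Benjamini-Hochberg adjusted p over all 55681 probes was under 0.05 and the ratio of the group medians was over 1.5, and folds are ratios of medians. The members other than *Ccl22* were well above background on every one of the 48 arrays, and no spot was saturated. *Ccl22* was not well above background on any array. Its log2 signals ran from 1.49 to 3.02, and it passed no test with these settings. It is included below in every count out of 9.

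The sorted fractions were checked against marker lists. All 9 oligodendrocyte-lineage markers were well above background in O4+ cells and were called higher there than in CD11B+ cells at both ages. They were also well above background on every CD11B+ array. Of 15 microglia markers, 13 were called lower in O4+ cells at each age, *Itgam* was called higher, *Siglech* was not called, and all 15 were still well above background on every O4+ array. *Itgam*, which encodes CD11B, had 3 probes. In PBS cells at P5, 2 of them were lower in O4+ cells, with log2 differences of -3.62 and -2.90, whereas the brightest was 2.00 higher, so the probes disagreed. Each sample is a bulk extract, in which fewer cells of a type and less RNA per cell cannot be told apart. One array stood apart for these genes, CD11B+ P10 PBS replicate 6: its mean over 8 neutrophil and monocyte markers was 13.01, against 10.33 to 10.87 on the other 5 arrays of the group. Values of *Ccl5*, and those of the other lists after IL1B in CD11B+ P10 cells, are given with and without it where it moved them, a choice made after the data were seen.

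Without IL1B, 8 of the 9 chemokines were lower in O4+ than in CD11B+ cells at both ages, but well above background in both. These levels were set on a scale normalized over all 48 arrays. At P5 the differences ran from 2.37 lower for *Ccl5* to 4.54 lower for *Ccl7* on the log2 scale, with a median over the 9 members of -3.67 against -0.049 over all probes. Among all probes, 21.8% were called lower in O4+ cells at P5 and 20.2% at P10; the shares called higher, 19.8% and 22.2%, included no member. At P10 the median difference over the members was -5.32, against 0.0029 over all probes.

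*Ccl7*, a monocyte attractant, showed the widest gap at P10. Its log2 signal in O4+ cells lay between 6.88 and 7.45 (median 7.18), and in CD11B+ cells between 13.16 and 13.53 (median 13.31). The groups did not overlap, and O4+ cells were 69.9-fold lower (limma adjusted p = 1.88e-12). *Ccl4*, an attractant of monocytes and T cells, was highest in CD11B+ cells, where it lay between 16.70 and 16.84 (median 16.78) at P5. In O4+ cells of that age it lay between 13.29 and 14.05 (median 13.90), 7.35-fold lower with no overlap (adjusted p = 4.47e-10). *Ccl5* differed least of the 8. At P10 it lay between 6.74 and 7.44 (median 6.98) in O4+ cells, and between 7.91 and 11.77 (median 8.33) in CD11B+ cells, 2.55-fold lower in O4+ cells (adjusted p = 0.0209). The highest CD11B+ value came from replicate 6. Without that array the difference was -1.17 ± 0.14 (SE) in place of -1.76 ± 0.57 on the log2 scale, and the adjusted p was 2.63e-05. With slide as a random block, and all arrays kept, its adjusted p was 0.0674.

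**Figure D1:**
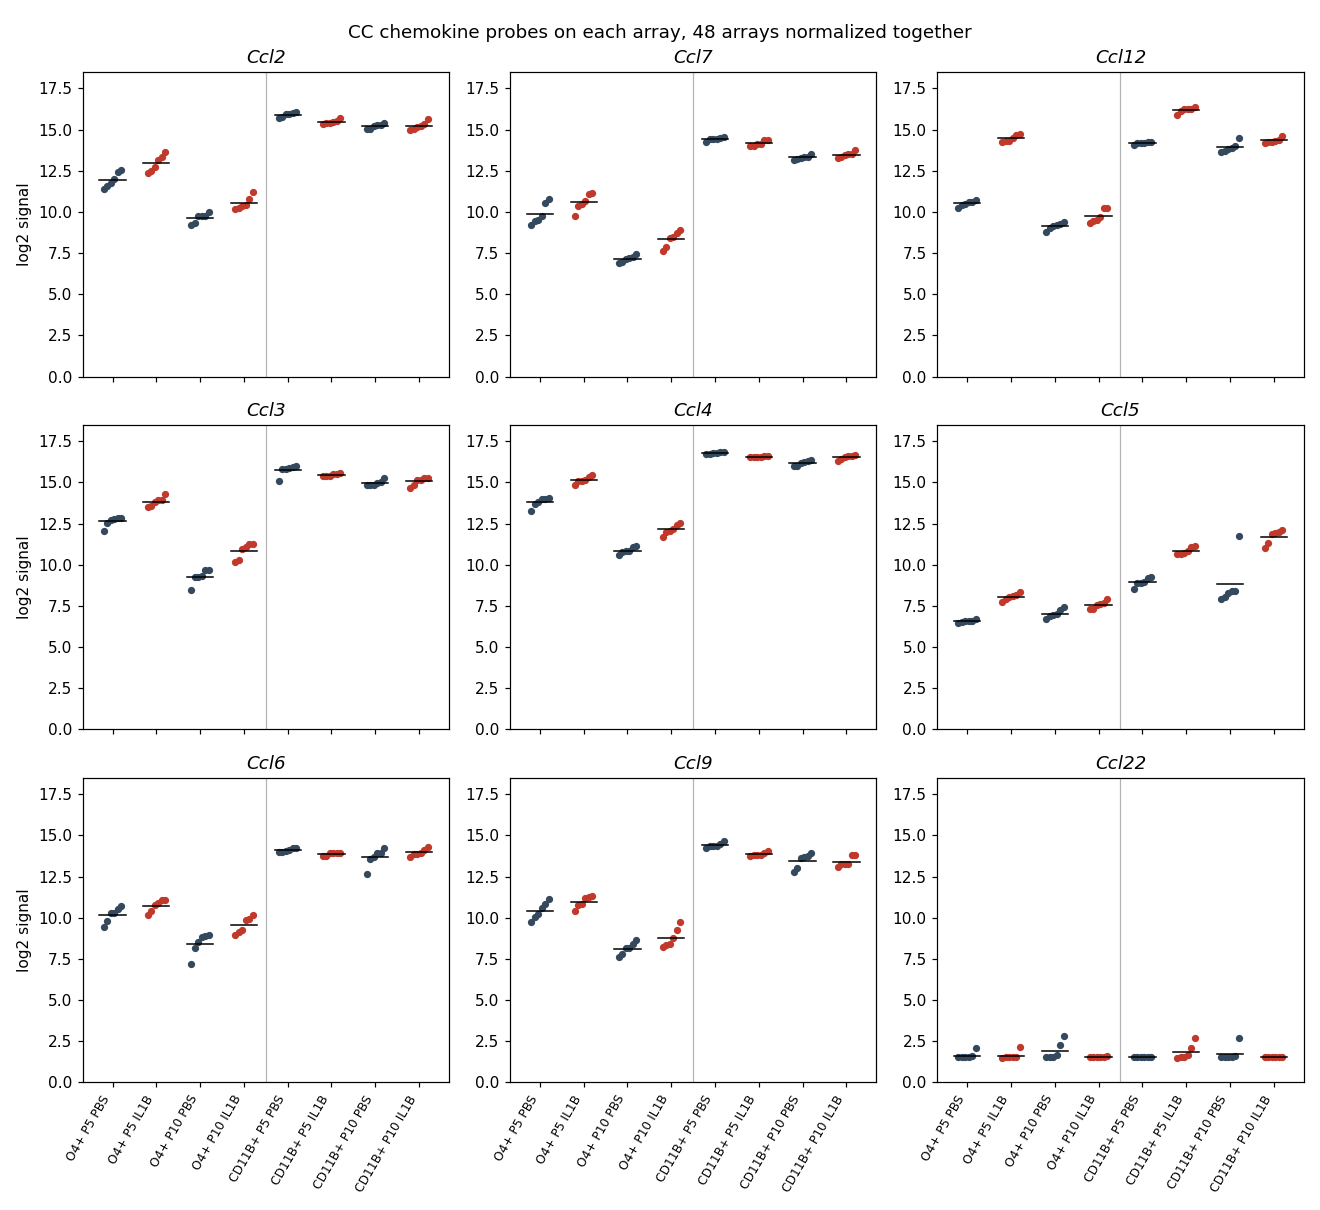
Log2 signal (vertical axis) of the 9 CC chemokine probes on each of the 48 arrays, 6 per group, all arrays normalized together, points sorted by value within a group, dark for PBS and red for IL1B, with a black line at the group mean. In 8 panels the PBS O4+ groups lie below the PBS CD11B+ groups, *Ccl12* rises after IL1B at P5 in both cell types, *Ccl5* has 1 high array among the CD11B+ P10 PBS samples, and *Ccl22* stays near the floor.

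In O4+ cells at P5, IL1B was followed by higher levels of 5 of the 9 chemokines, *Ccl2*, *Ccl3*, *Ccl4*, *Ccl5* and *Ccl12*, and by a lower level of none. Of all probes, 3.43% were called higher and 1.49% lower in this comparison. The median change over the members was 0.95 on the log2 scale, against -0.045 over all probes. *Ccl12* had the largest change. Its log2 signal lay between 10.39 and 10.83 (median 10.66) on the PBS arrays and between 14.22 and 14.68 (median 14.36) on the IL1B arrays. All 6 IL1B arrays were above all 6 PBS arrays, and the rise was 13-fold (log2 change 3.78 ± 0.10 SE, adjusted p = 1.45e-08).

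*Ccl5*, which attracts T cells and monocytes, rose 2.75-fold. Its PBS signals lay between 6.72 and 6.96 (median 6.84) and its IL1B signals between 8.01 and 8.56 (median 8.30), without overlap (adjusted p = 1.52e-06). *Ccl4* rose 2.24-fold, from between 13.27 and 14.02 (median 13.88) to between 14.79 and 15.31 (median 15.05), also without overlap (adjusted p = 7.13e-05). Its neighbour *Ccl3* rose 2.13-fold, from between 12.09 and 12.87 (median 12.74) to between 13.47 and 14.23 (median 13.83), and again no IL1B array fell among the PBS arrays (adjusted p = 0.000414).

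*Ccl2*, the founding monocyte attractant, had the least certain of the 5 calls. It lay between 11.47 and 12.56 (median 11.92) under PBS and between 12.40 and 13.61 (median 12.92) under IL1B, and the groups overlapped (2.01-fold, adjusted p = 0.0229). The call was lost with slide as a block (adjusted p = 0.102), with scan date as a block (0.0869), with the replicate number as a block (0.067), and without PBS replicate 3 or IL1B replicate 4 (0.0518 each). The other 3 detected members had positive differences that did not pass: 0.66 ± 0.30 for *Ccl7* (adjusted p = 0.165), 0.52 ± 0.21 for *Ccl6* (0.128) and 0.50 ± 0.23 for *Ccl9* (0.178). On the scan day that held 1 IL1B and 4 PBS arrays, the change was 3.77 for *Ccl12* and 0.76 for *Ccl2*, and on the day with 5 and 2 arrays it was 3.86 and 0.94.

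At P10, when the last injection lay days back, 5 members were again called higher in O4+ cells of IL1B pups: *Ccl2*, *Ccl3*, *Ccl4*, *Ccl5* and *Ccl7*. Of all probes, 2.49% were called higher and 1.42% lower; no member was lower. The median change over the members was 0.86, against -0.022 over all probes. *Ccl3* lay between 8.73 and 9.88 (median 9.51) under PBS and between 10.30 and 11.35 (median 11.08) under IL1B, which did not overlap, and was 2.98-fold higher (adjusted p = 0.00504). *Ccl4* was 2.35-fold higher, at 10.69 to 11.19 (median 10.92) against 11.72 to 12.56 (median 12.15), with no overlap (adjusted p = 0.00126).

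*Ccl7* was 2.35-fold higher (adjusted p = 0.00645): 7.14 to 7.71 (median 7.44) under PBS and 7.87 to 9.14 (median 8.68) under IL1B, without overlap. *Ccl2* was 1.54-fold higher (adjusted p = 0.0115), at 9.40 to 10.14 (median 9.90) against 10.34 to 11.25 (median 10.52); it did not overlap either, but its ratio lay close to the threshold and fell under it without IL1B replicate 1, 3 or 6. *Ccl5* also lay close to it. Its ranges, 6.998 to 7.70 (median 7.24) and 7.58 to 8.17 (median 7.86), overlapped, its ratio was 1.53 and its adjusted p 0.0291, and the call was lost without PBS replicate 2, 3, 4 or 5 or IL1B replicate 3 or 5 (adjusted p from 0.0563 to 0.0618). With slide as a block, 3 members stayed called, *Ccl3*, *Ccl4* and *Ccl7*. *Ccl6* had a change of 1.06 ± 0.31 with an adjusted p of 0.0503, and *Ccl12* one of 0.56 ± 0.16 with a ratio of 1.31 (adjusted p = 0.0493), so neither was called.

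In CD11B+ cells at P5, 2 of the 9 chemokines were called higher after IL1B, *Ccl12* and *Ccl5*, against 4.05% of all probes, and none was called lower, against 5.25%. *Ccl12* rose 4.49-fold, from between 14.08 and 14.30 (median 14.23) to between 16.05 and 16.54 (median 16.40), with no overlap (log2 change 2.12 ± 0.079, adjusted p = 3.61e-08). *Ccl5* rose 3.91-fold, from between 8.31 and 9.03 (median 8.70) to between 10.54 and 11.06 (median 10.67), also without overlap (adjusted p = 1.63e-06). The median change over the members was -0.23, against -0.015 over all probes. Several of the other members had small negative differences that passed the adjusted p but not the fold threshold. *Ccl2* lay between 15.85 and 16.23 (median 16.11) under PBS and between 15.45 and 15.84 (median 15.53) under IL1B, without overlap, a ratio of 1.49 downward (adjusted p = 0.00182). *Ccl9* stood at the threshold, with a log2 change of -0.58 ± 0.076 (adjusted p = 0.000218), and was called lower with normexp background correction, in the deposited matrix, and without any 1 of 6 arrays (PBS replicate 2, 3 or 6, IL1B replicate 3, 4 or 6). *Ccl2* was called lower without IL1B replicate 1, 3 or 6. With no fold threshold, *Ccl2*, *Ccl4*, *Ccl6*, *Ccl7* and *Ccl9* would count as lower.

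In CD11B+ cells at P10, *Ccl5* alone of the 9 was called higher, against 1.09% of all probes, and none was called lower, against 1.08%. It lay between 7.67 and 11.71 (median 8.09) on the PBS arrays and between 10.91 and 12.05 (median 11.85) on the IL1B arrays, a 13.5-fold ratio of medians (log2 change 3.05 ± 0.62, adjusted p = 0.0224). The groups overlapped through PBS replicate 6 alone, the array that also carried high neutrophil and monocyte markers; its next highest PBS value was 8.20. Without that array the change was 3.68 ± 0.21 (adjusted p = 3.07e-05), and 2.54% of all probes were called higher and 2.38% lower. On the slide that held 5 IL1B arrays and 2 PBS arrays, one of them replicate 6, it was 1.61, and with slide as a block the adjusted p was 0.514. Leaving out PBS replicate 1, 2 or 3 or IL1B replicate 5 also ended the call (adjusted p from 0.0512 to 0.0576). The values of *Ccl4* (0.35 ± 0.091, adjusted p = 0.0459) stayed under the fold threshold. The median over the members was 0.17, against 0.0009 over all probes.

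**Figure D2:**
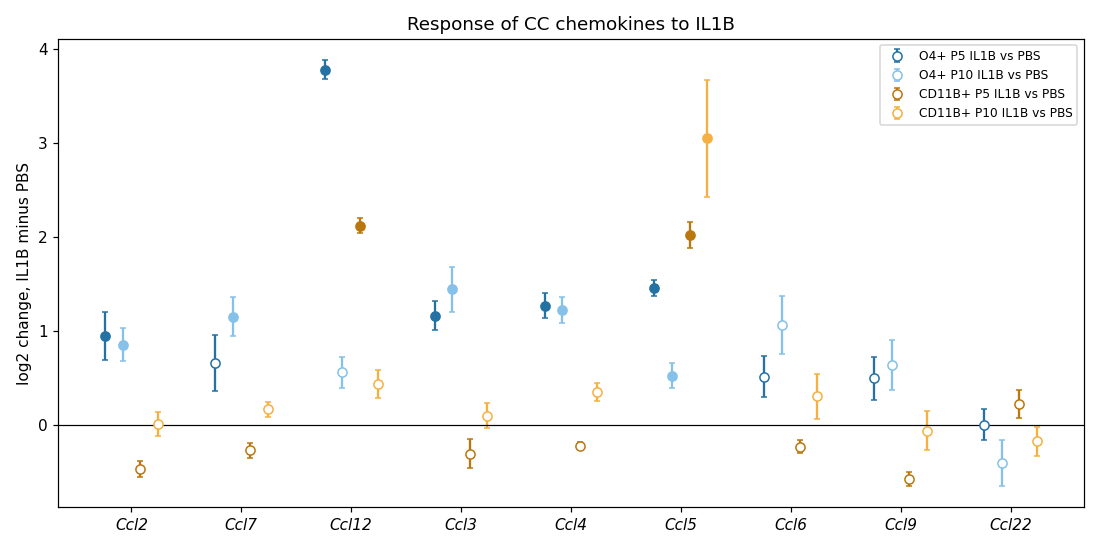
Log2 change of each CC chemokine after IL1B (IL1B minus PBS group mean, vertical axis; bars are limma standard errors, 6 arrays per group) in the 4 comparisons, with filled points where the member was called. The *Ccl12* points at P5 stand at 3.78 in O4+ and 2.12 in CD11B+ cells, and those of *Ccl5* in CD11B+ cells at 2.02 and 3.05, while *Ccl2*, *Ccl3* and *Ccl4* are called in O4+ cells and not in CD11B+ cells.

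The responses were then compared with each other by limma interaction terms (adjusted p under 0.05, with no fold threshold). Between the cell types at P5, the response of 6 of the 9 members was more positive in O4+ cells, and of none more negative, where 6.93% and 3.78% of all probes were called. The differences of log2 changes were 1.95 ± 0.13 for *Ccl12* (adjusted p = 3.22e-09), 1.56 ± 0.14 for *Ccl4*, 1.49 ± 0.22 for *Ccl3*, 1.43 ± 0.28 for *Ccl2*, 1.09 ± 0.26 for *Ccl9* and 0.77 ± 0.24 for *Ccl6*. With slide as a block, *Ccl12*, *Ccl3* and *Ccl4* stayed called. At P10, 4 responses were more positive in O4+ cells (3.92% of all probes), led by *Ccl3* at 1.45 ± 0.29. With slide as a block, *Ccl4* and *Ccl7* stayed called, while *Ccl3* (adjusted p = 0.0742) and *Ccl2* (0.0917) did not. The response of *Ccl5* was more negative in O4+ cells (3.65% of all probes), at -2.37 ± 0.62 (adjusted p = 0.021). Without CD11B+ P10 PBS replicate 6 the *Ccl5* difference was -2.96 ± 0.25 (adjusted p = 7.7e-07), and with slide as a block its adjusted p was 0.364. These comparisons of cell types share their PBS and IL1B arrays with the single comparisons above. Of the 15 microglia markers, 13 were also more positive in O4+ cells at P5, and none was more negative. Their median difference was 1.30, against 1.09 over the 9 members. At P10, 6 of the markers were more positive and none more negative, with a median of 0.60 against 0.81. Whether they bear on the chemokine differences was not tested.

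Between ages, *Ccl12* was the member whose response changed most. In O4+ cells it was 3.22 ± 0.20 smaller at P10 than at P5 on the log2 scale (interaction -3.22, adjusted p = 1.7e-09), and that of *Ccl5* was smaller too (-0.93 ± 0.16, adjusted p = 0.000485). These were 2 of 9 members, where 5.32% of all probes were more negative; no member was more positive, against 7.83%. *Ccl2*, *Ccl3* and *Ccl4* had differences from -0.091 to 0.28 with standard errors of 0.20 to 0.31, and no difference between ages was detected for them. In CD11B+ cells the *Ccl12* response was also smaller at P10 (-1.69 ± 0.17, adjusted p = 6.03e-07; 6.3% of all probes more negative). Those of *Ccl4* (0.57 ± 0.10), *Ccl2* (0.49 ± 0.16) and *Ccl7* (0.44 ± 0.12) were more positive (10.5% of all probes); none of these 3 stayed called with slide as a block (adjusted p from 0.361 to 0.671).

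With age, in PBS pups, 7 of the 9 chemokines were lower at P10 than at P5 in O4+ cells (8.96% of all probes), and none was called higher (7.85%). *Ccl3* fell most, from between 12.09 and 12.87 (median 12.74) to between 8.73 and 9.88 (median 9.51). The groups did not overlap, and the level was 9.43-fold lower (adjusted p = 3.12e-07). *Ccl4* was 7.83-fold lower, *Ccl7* 5.21-fold, *Ccl9* 4.44-fold, *Ccl2* 4.06-fold, *Ccl6* 2.82-fold and *Ccl12* 2.43-fold, and none of their groups overlapped. *Ccl5* went the other way, from between 6.72 and 6.96 (median 6.84) to between 6.998 and 7.70 (median 7.24); its 1.32-fold higher median passed the adjusted p (0.00535) but not the fold threshold. The median change over the members was -2.19, against 0.017 over all probes.

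In CD11B+ cells, 5 of the 9 were lower at P10 (3.61% of all probes), *Ccl2*, *Ccl3*, *Ccl4*, *Ccl7* and *Ccl9*, and none was called higher (4.65%). *Ccl7* fell most, from between 14.27 and 14.56 (median 14.47) to between 13.18 and 13.55 (median 13.33), without overlap and 2.21-fold (adjusted p = 3.11e-06). *Ccl3* was 2.01-fold lower with overlapping groups, *Ccl2* 1.69-fold, *Ccl9* 1.67-fold and *Ccl4* 1.51-fold, the last under the threshold without P10 replicate 1, 2 or 3. With scan date as a random block, *Ccl2*, *Ccl4* and *Ccl7* stayed called. Ages fell on separate slides and separate scan days in both cell types, so such a block cannot separate an effect of scan day from age. Whether the age change differed between the cell types was not tested; the median over the members was -0.62 in CD11B+ cells.

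**Figure D3:**
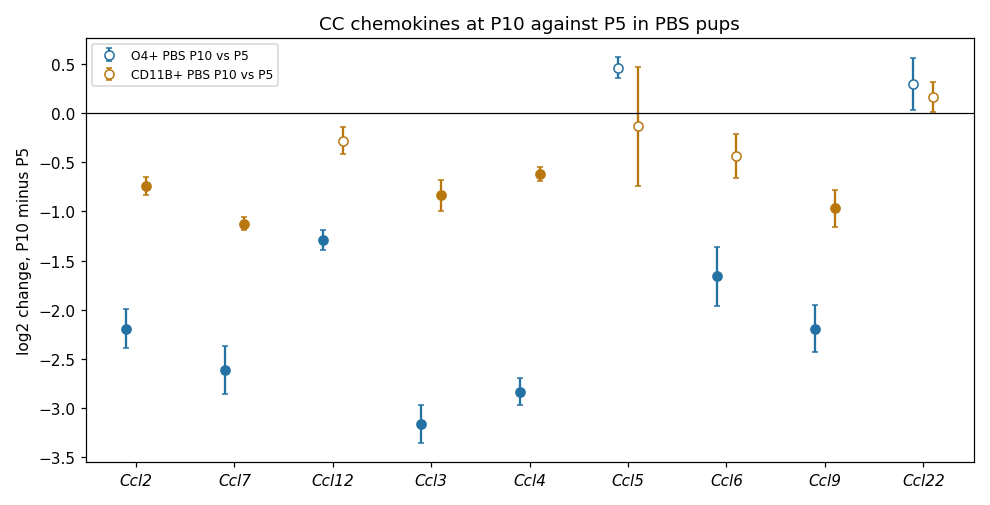
Log2 change from P5 to P10 (P10 minus P5 group mean, vertical axis; bars are limma standard errors, 6 arrays per group) of each CC chemokine in PBS pups, with filled points where the member was called. The O4+ points of 7 members lie between -3.16 and -1.29, and the 5 called CD11B+ points between -1.13 and -0.62.

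Microglia markers moved with the O4+ results. In O4+ cells at P5, 10 of 15 were called higher after IL1B and none lower, with a median change of 1.05; their mean log2 signal per array ran from 13.30 to 13.86 under PBS and from 14.42 to 14.81 under IL1B. The changes of *Ccl2*, *Ccl3*, *Ccl4* and *Ccl5* lay between 0.95 and 1.46. Those of the 15 markers ran from -0.22 to 1.79, with the complement genes *C1qa*, *C1qb* and *C1qc* at the upper end, between 1.64 and 1.79. The change of *Ccl12*, 3.78, was larger than that of any of the 15. At P10, 7 of the 15 were higher, with a median of 0.50 and changes from -0.41 to 0.76. Their mean signal per array ran from 12.53 to 13.17 under PBS and from 12.88 to 13.49 under IL1B. The median change over the 9 chemokines was 0.86, and the 5 members called ran from 0.52 to 1.44. From P5 to P10 in PBS, 12 of the 15 were lower in O4+ cells and *Itgam* higher, with a median of -1.23. In CD11B+ cells none was called higher after IL1B; *P2ry12*, *Fcrls* and *Gpr34* were lower at P5, and 4 were higher at P10 than at P5. Between ages (P10 minus P5), the IL1B response of 7 of the 15 was more negative in O4+ cells, with a median of -0.47. In CD11B+ cells 2 were more positive and none more negative. The part of these markers in the chemokine results was not tested.

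Markers of border macrophages, the macrophages of meninges and vessels, and of endothelial cells also moved with some of these results. In O4+ cells at P5, 3 of 6 border macrophage markers were called higher after IL1B, with a median change of 0.63, and their mean log2 signal per array ran from 8.53 to 9.84 under PBS and from 9.04 to 10.50 under IL1B. Of 6 endothelial markers, 4 were lower there (median -0.85; 10.50 to 11.46 under PBS and 10.02 to 10.51 under IL1B) and 4 in CD11B+ cells at P5 (median -0.91; 9.61 to 10.20 and 8.84 to 9.36). In PBS CD11B+ cells, where 5 chemokines were lower at P10 than at P5, 5 of the 6 border macrophage markers were lower as well (median -0.86), with a mean signal of 13.23 to 13.53 at P5 and 12.53 to 12.78 at P10. So were 5 of the 6 endothelial markers (median -0.62; 9.61 to 10.20 and 9.19 to 9.48). In O4+ cells 3 endothelial markers were lower with age (median -0.72), and of the border macrophage markers 1 was lower and 1 higher. Of 6 astrocyte markers, 3 were higher after IL1B in O4+ cells at P10 (median 0.57) and none at P5, and in CD11B+ cells at P10 there was 1, or 3 without PBS replicate 6. The part of these lists in the chemokine results was not tested.

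Set against CD11B+ cells on the common scale, the chemokine median lay below the microglia marker median in each of the 4 conditions. In PBS pups at P5 the median O4+ minus CD11B+ difference was -3.67 for the chemokines and -3.01 for the 15 markers. With IL1B at P5 both were smaller, -2.52 and -1.40. At P10 they were -5.32 and -4.59 with PBS and -4.43 and -3.92 with IL1B. *Ccl12* moved from -3.67 to -1.71 at P5, and *Ccl5* from -2.37 to -2.80. These medians are descriptions of 2 lists of unequal size.

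**Figure D4:**
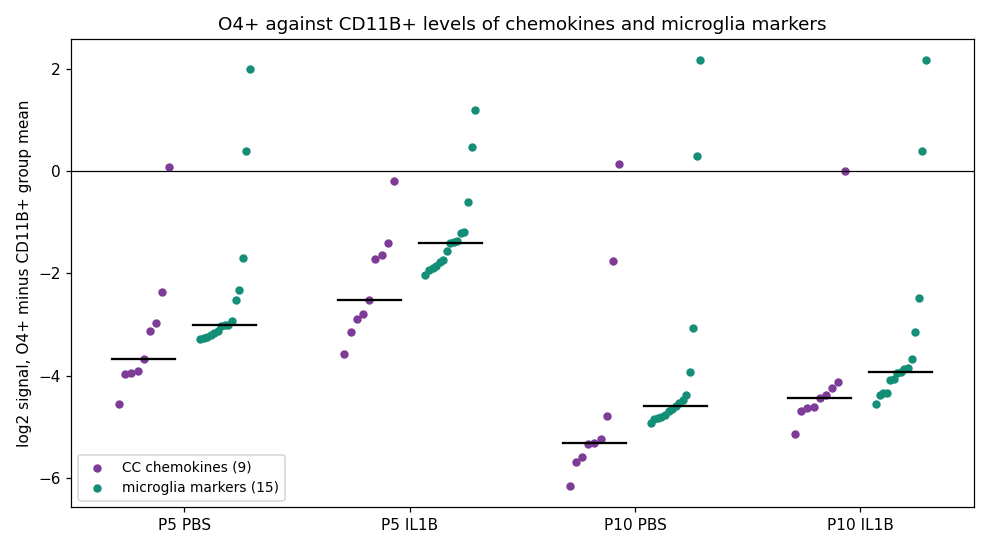
Difference of log2 group means, O4+ minus CD11B+ (vertical axis), for each of the 9 CC chemokines (purple) and 15 microglia markers (green) in the 4 conditions, all 48 arrays normalized together, points sorted by value and a black line at the median. The chemokine medians run from -2.52 (P5 IL1B) to -5.32 (P10 PBS), each below the marker median beside it, and the green points above 0 are *Itgam* and *Siglech*.

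Markers of neutrophils and monocytes moved with IL1B as well. All 8 measured markers were higher after IL1B at P5, with a median change of 5.07 in O4+ and 4.39 in CD11B+ cells. Their mean signal per array ran from 4.11 to 4.83 under PBS and from 7.12 to 10.78 under IL1B in O4+ cells, where 3 of the 8 were not well above background on any PBS array. In CD11B+ cells it ran from 10.28 to 11.45 and from 14.42 to 15.15. At P10, 6 of the 8 were higher in O4+ cells (median 1.78; 3.46 to 4.72 under PBS and 5.01 to 6.48 under IL1B) and none passed in CD11B+ cells (median 1.20; 10.33 to 13.01 and 11.53 to 12.62). The CD11B+ groups overlapped through PBS replicate 6 alone. Without that array the PBS signals ended at 10.87, and all 8 markers were called higher (median 1.63). Like that of *Ccl12*, their response was smaller at P10 than at P5. With all arrays kept, 5 of the 8 were more negative in O4+ cells (median difference -2.77) and all 8 in CD11B+ cells (-3.10). Their part in the chemokine results was not tested.

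Of 14 other CC chemokines listed, 11 were on the array, and *Ccl8*, a further monocyte attractant, was called higher after IL1B in all 4 comparisons. In O4+ cells at P5 its log2 signal lay between 2.11 and 4.08 under PBS, well above background on 2 of 6 arrays, and between 7.17 and 9.25 under IL1B (log2 change 5.16 ± 0.41, adjusted p = 1.17e-05). At P10 it was again well above background on few PBS arrays, 1 of 6, and on all IL1B arrays (4.22 ± 0.65, adjusted p = 0.00373). In CD11B+ cells its change was 4.43 ± 0.31 at P5 (adjusted p = 2.09e-06) and 3.67 ± 0.81 at P10 (adjusted p = 0.027). The P10 groups overlapped, since the highest PBS array, replicate 6, stood at 11.48 and the lowest IL1B array at 10.14. Without replicate 6 the other PBS arrays reached 7.71 and the change was 4.39 ± 0.48 (adjusted p = 0.000796). *Ccl17*, a Ccr4 ligand like *Ccl22*, was called higher in CD11B+ cells at P5 (10.6-fold, adjusted p = 9.35e-07) and in no other of the 4 comparisons, though without CD11B+ P10 PBS replicate 6 it was called at P10 too (2.10-fold, adjusted p = 0.0104). Its response there was larger than in O4+ cells (difference -3.38 ± 0.25, O4+ minus CD11B+, adjusted p = 8.13e-09) and than at P10 (-2.71 ± 0.40, P10 minus P5, adjusted p = 4.76e-05). *Ccl26* was called lower in CD11B+ cells at P5, but it was not well above background on any array of either group. The median change over the 11 lay between -0.10 and 0.061 in the 4 comparisons.

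The 15 receptors and decoy receptors were called mostly at P5, and fewer of all probes were called at P10 as well. In O4+ cells 7 were higher and 2 lower at P5 (3.43% and 1.49% of all probes). The atypical receptor *Ccrl2* rose 3.04-fold (adjusted p = 1.23e-06) and *Ccr7* 1.93-fold. *Darc*, a scavenging receptor of blood vessels and red cells, rose 3.14-fold, and *Ccr1l1* 3.43-fold, from well above background on 2 of 6 arrays. *Ccr1* and *Ccr2* were not well above background on any PBS array; *Ccr1* was at least 3.09-fold higher (5 of 6 IL1B arrays well above background, adjusted p = 0.000541), and *Ccr2*, the receptor of the monocyte attractants, at least 2.63-fold (2 of 6 arrays, adjusted p = 0.00385). The decoy receptors *Ccbp2* and *Ccrl1* were lower, 2.68-fold and 4.96-fold, the latter well above background on 5 PBS arrays and 1 IL1B array. At P10 *Ccrl2* alone was called, 1.73-fold higher (2.49% of all probes higher, 1.42% lower).

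In CD11B+ cells at P5, 5 receptors were higher (4.05% of all probes) and *Ccbp2* was lower (3.03-fold, with 5.25% of all probes lower). *Darc* rose 16.3-fold (adjusted p = 1.62e-06), *Ccr7* 2.23-fold, *Ccr2* 1.82-fold and *Ccr1l1* 1.79-fold, and *Ccr9* 2.25-fold from well above background on 1 of 6 arrays. At P10 *Ccr7* was the one called, 2.96-fold higher (adjusted p = 0.0195), where 1.09% of all probes were higher and 1.08% lower. Without PBS replicate 6 it was 3.31-fold higher (adjusted p = 0.000251), and *Ccrl2* was called as well (1.54-fold, adjusted p = 0.00454). The median change over the 15 was 0.73 and -0.035 in O4+ cells and 0.34 and 0.055 in CD11B+ cells, at P5 and P10.

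The order of the 8 group means on the common scale fell into 3 patterns. *Ccl2*, *Ccl3*, *Ccl4*, *Ccl6*, *Ccl7* and *Ccl9* were highest in CD11B+ P5 PBS cells, and all CD11B+ groups stood above all O4+ groups. Below these, the order in O4+ cells was P5 IL1B, P5 PBS, P10 IL1B and P10 PBS for each of the 6. For *Ccl3* and *Ccl4* none of these neighbouring O4+ groups overlapped; for *Ccl6* and *Ccl9* each overlapped the next, and for *Ccl2* and *Ccl7* only the P5 pair did. *Ccl12* was highest in CD11B+ P5 IL1B cells at 16.18, followed by O4+ P5 IL1B cells at 14.47, which overlapped CD11B+ P10 IL1B cells at 14.34. *Ccl5* was highest in CD11B+ P10 IL1B cells at 11.70, overlapping CD11B+ P5 IL1B cells at 10.85, and lowest in O4+ P5 PBS cells at 6.58, which did not overlap the group above.

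Likeness was measured as the root mean square difference between profiles over the 8 group means, each centred on its own mean, among 13464 probes of other genes. Between members, *Ccl2* and *Ccl9* (0.16) and *Ccl3* and *Ccl4* (0.17) were the closest pairs. The non-member nearest to *Ccl2* and to *Ccl9* was *Gem* (0.18 for both), followed by *Mylip* and *Nfkbiz* for *Ccl2* and *Acp5* and *Serpinf2* for *Ccl9*. *Tgif1* was nearest to *Ccl4* (0.20), before *Dusp2* and *Maff*, and *Cxcl10* to *Ccl3* (0.27), before *Tgif1* and *Tlr2*. *Bcl3* was nearest to *Ccl12* (0.28), before *Zc3h12a* and *Csf2rb*. *Slc16a10* was nearest to *Ccl6* (0.14), before *Asb10* and 9530053H05Rik. The nearest to *Ccl5* were Gm6571 (0.39), *H2-Ab1* and *Skap1*, and to *Ccl7* 5430427O19Rik (0.36), *Ugt1a10* and *Ctsc*. For *Ccl22*, below background throughout, likeness has no meaning and no gene is named.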

How the data were processed

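RNA of 48 samples was hybridised by the authors to 1-colour mouse arrays with probe positions on mm9, and scanned with Agilent Feature Extraction 10.7.3.1 per the file headers. The deposited intensity values are background-subtracted processed signals per spot; their background flags, coded 0 or 1 and unit other in the records, and the deposited matrix, listed as a ratio, equal to these signals divided by each array's median on a linear scale (largest log2 deviation 1.86e-05), were used as well. Here 59305 non-control spots were read, 278 non-uniform spots were left out, log2 values were quantile normalized (limma 3.58.1, R 4.3.3), within each cell type (24 arrays), or jointly (48 arrays) wherever cell types were compared, and spots of a probe were averaged to 55681 probes. No filter on dim probes was used. Between 54.08% and 66.4% of spots per array were well above background; precision is limited by the number of arrays. Arrays of 1 group correlated at 0.9617 or more. Files gave 9 slides and 5 scan days.

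Groups came from the labels. Each comparison was fitted with limma on its 12 arrays, interactions on 4 groups, with Benjamini-Hochberg adjustment over all probes; scripts were tested on simulated data. Samples of a group are separate mice by the labels and separate pools by the methods, which was not settled. The p-values measure the spread between these samples. Alternatives were 75th percentile scaling, normexp with offset 50, joint normalization, the deposited matrix, a dim-probe filter, slide, scan date and replicate blocks, the methods' equal-variance test, other fold rules, pooled fits and leaving out each array. The members and lists were chosen with earlier results of these data known. The text names all 9 members, every listed chemokine or receptor called after IL1B except 1 that is not reported here, and the 3 nearest genes per member with SD of group means of at least 0.5. The replicate numbers were not used to pair samples, except in the replicate block. The labels' description of P10 samples repeats P5; title, source and stage give P10.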

Additional observations from a re-analysis of the deposited data

Results flagged for a closer look

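On 8 of 72 sets of 6 arrays (9 members in 8 groups), the highest or lowest array stood far from the rest by Dixon's ratio at its critical value for 6 samples, and chance alone marks about 1 set in 20. *Ccl5* stood at 11.715 on CD11B+ P10 PBS replicate 6, where the next array was at 8.198. *Ccl3* stood at 15.15 on CD11B+ P5 PBS replicate 5, below the next at 15.932, and *Ccl7* at 14.269 on CD11B+ P5 PBS replicate 6, below the next at 14.467. The other 5 were *Ccl22* values, none well above background: 2.227 on O4+ P5 PBS replicate 2, 2.316 on O4+ P5 IL1B replicate 6, 1.603 on O4+ P10 IL1B replicate 4, 1.524 on CD11B+ P5 PBS replicate 6 and 2.521 on CD11B+ P10 PBS replicate 2.

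Of 36 differences between IL1B responses, 17 passed limma's adjusted p under 0.05. Among all probes, the share that passed in a single direction ran from 3.65% to 10.5% over these comparisons. Between ages (P10 minus P5, log2), the O4+ response differed by -3.221 for *Ccl12* and -0.932 for *Ccl5*, and the CD11B+ response by -1.686 for *Ccl12*, 0.572 for *Ccl4*, 0.485 for *Ccl2* and 0.438 for *Ccl7*. Between cell types at P5 (O4+ minus CD11B+), the response differed by 1.954 for *Ccl12*, 1.556 for *Ccl4*, 1.485 for *Ccl3*, 1.431 for *Ccl2*, 1.085 for *Ccl9* and 0.773 for *Ccl6*. At P10 it differed by 1.451 for *Ccl3*, 1.015 for *Ccl7*, 0.941 for *Ccl4*, 0.906 for *Ccl2* and -2.365 for *Ccl5*.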

How the results depend on the processing

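No called member reversed its direction under the alternatives run for it. Of the values of single members, 612 stayed on their side of the thresholds and 33 lost their call under other settings, and 483 and 18 did so when 1 array was left out. Counts that moved by over 1.5 times follow, without the share of all probes under the same setting. A general loss or gain of calls can therefore not be told from one particular to the members. With slide as a block, O4+ P10 had 3 members higher and CD11B+ P10 had 0. The same block left 0 more positive members in CD11B+ cells between ages, 3 more positive between cell types at P5, and 2 more positive with 0 more negative at P10. With scan date as a block, 3 members were lower with age in CD11B+ cells, and 1 (*Ccl5*) was more negative between cell types at P5, as it was with 75th percentile scaling (1) and normexp (1). In CD11B+ P5 cells, 1 member was lower with normexp, 1 in the deposited matrix and 5 with no fold threshold. With no fold threshold, 2 members were higher in CD11B+ P10 cells and 1 (*Ccl5*) with age in O4+ cells. With 75th percentile scaling, 1 was lower in O4+ P10 cells, *Ccl22*, which lay at background. With all 8 groups in 1 fit, 1 member was more negative between ages in O4+ cells and 1 more positive in CD11B+ cells. Leaving out each array in turn gave 4 to 5 members higher in O4+ P5, 3 to 6 in O4+ P10, 2 in CD11B+ P5 and 0 to 1 in CD11B+ P10 cells, 0 to 2 lower in CD11B+ P5 cells, and with age 7 lower in O4+ and 4 to 6 in CD11B+ cells. Between cell types 8 stayed lower at both ages. The cause of these changes was not tested. The refit of the interactions without CD11B+ P10 PBS replicate 6, chosen after the data were seen, had 4 more positive members in CD11B+ cells between ages, where *Ccl5* joined. With the replicate number as a block, 4 members were higher in O4+ P5 cells, 6 in O4+ P10 cells, and 5 more positive between cell types at P5, and it changed no other count. Same-numbered arrays correlated in their deviations between -0.081 and 0.482, with at most 2 of 6 pairs over 0.1 in any comparison. Between cell types in PBS pups, 4 of 6 O4+ arrays at P5 and 5 of 6 at P10 correlated best with the CD11B+ array of their own number. Those same-numbered correlations were weak but all positive, 0.024 to 0.122 at P5 and 0.03 to 0.153 at P10. Whether the numbers pair the cell fractions was not settled, and the main fits did not pair them. Each member had 1 probe, so averaging over probes could not differ. The low signal of *Ccl22* limits what can be said of it.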
